A study of Mus musculus with 4 samples.

Results

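The short-term energy store of muscle was followed through 10 genes in mouse tibialis anterior, the fast-twitch muscle along the shin: Ckm, Ckmt2, Ckb, Slc6a8, Gatm, Gamt, Ak1, Ampd1, Ampd3 and Adssl1. They were named by their role in the phosphocreatine system, the adenylate kinase reaction and the purine nucleotide cycle, and are 10 of 32868 named genes in the data. Each had a single row in the deposited values, and all 10 passed the filter on low values. RNA was taken at postnatal day 21 from C57BL/6 mice. The Het group (2 libraries) is labelled Nf1flox/+/Myf5+, with 1 floxed Nf1 allele, and the Nf1-KO group (2 libraries) is labelled Nf1flox/flox/Myf5+, with 2. Both groups thus carry Myf5+ and at least 1 floxed allele, and no library without them was compared. Myf5 is a gene of muscle precursors, and the labels name no recombinase. The labels do not say whether the libraries of a group came from separate animals, so the p-values measure the spread between these libraries, which may be technical.

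Muscle contraction uses ATP faster than oxidation and glycolysis can respond, and creatine kinase bridges the gap by passing phosphate from phosphocreatine to ADP. The muscle enzyme (Ckm) and the brain-type enzyme (Ckb) work in the cytosol, while the sarcomeric mitochondrial enzyme (Ckmt2) charges creatine where ATP is made. Creatine itself is made in a first step by Gatm and a second by Gamt, mostly outside muscle, and enters the fibre through the transporter Slc6a8. When ADP builds up, adenylate kinase (Ak1) turns a pair of ADP into ATP and AMP, AMP deaminase (Ampd1 in muscle, Ampd3 in red blood cells and other tissues) turns AMP into IMP, and adenylosuccinate synthase (Adssl1 in muscle, Adss elsewhere) and lyase (Adsl) bring IMP back to AMP.

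The abundant cytosolic and AMP-handling enzymes of this system were lower in Nf1-KO, and the mitochondrial creatine kinase was higher. Gamt fell to 0.231 of its Het level and Ampd1 to 0.592, while Ckmt2 rose to 1.48 times, Ckb to 1.53 times and Ampd3 to 2.15 times (ratios of mean RPKM, n = 2 libraries a group). Ckm, Ak1 and Adssl1 fell slightly, to 0.948, 0.945 and 0.901. Of the 10 genes, 4 were higher (Ckmt2, Ckb, Gatm, Ampd3), 5 lower (Ckm, Gamt, Ak1, Ampd1, Adssl1) and 1 (Slc6a8) did not pass the test. The background was high: of 10690 genes tested, 50.2% were called, 25.3% higher and 24.9% lower. With values as deposited, not scaled between libraries, 66.6% of the called genes were higher, against 50.5% with scaling. Among genes averaging at least 100 RPKM, which include 5 of the 10, 90.3% were called, so the size of a change tells more about these genes than the call. As deposited, the groups did not overlap for any of the 10, and after scaling for 9 of them, against 77.3% and 76.4% of all genes. The median log2 fold change was -0.07 over the 10 genes and 0.005 over all genes tested; with unscaled values it was 0.013 over the 10 genes and 0.07 over all, so the sign of the median of the 10 turned with the scaling.

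Values are RPKM (read numbers relative to gene length and to sequencing depth), so levels of different genes can be compared. Group means and ratios are of the values as deposited. Log2 fold changes are Nf1-KO minus Het on the log2(RPKM + 1) scale after scaling between libraries, tested with limma, and the adjusted p is by Benjamini-Hochberg over all genes tested. The added 1 makes the log2 fold change of genes of a few RPKM smaller than that of their levels. The authors' deposited table, with 31.6% of 13985 genes at an adjusted p under 0.05, called 8 of the 10 genes (3 higher, 5 lower) and did not call Gatm and Slc6a8.

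Nf1, the check of the labels, was 1.09 and 1.01 RPKM in Het and 0.89 and 0.85 RPKM in Nf1-KO (log2 fold change -0.18, limma adjusted p 0.043). The call was lost with unscaled values (-0.13, adjusted p 0.094), when any single library was left out (adjusted p 0.061 to 0.176), with the replicate number as a block (0.058) and with no filter on low values (0.083). The authors' deposited table called Nf1 lower (log2 fold change -0.38, adjusted p 0.00258). With a pseudocount of 0.1 the limma log2 fold change of Nf1 was -0.325 (adjusted p 0.048). Depth estimated from the steps of low values was 36500000 and 58100000 reads in the Het libraries and 47000000 and 51000000 in the Nf1-KO libraries. Replicates lay close, with a median coefficient of variation of 2.02% in Het and 1.91% in Nf1-KO over 4827 genes. All 9 markers of skeletal muscle fibres were abundant, the lowest at 448 RPKM (Myh2 in a Het library).

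**Figure D1:**
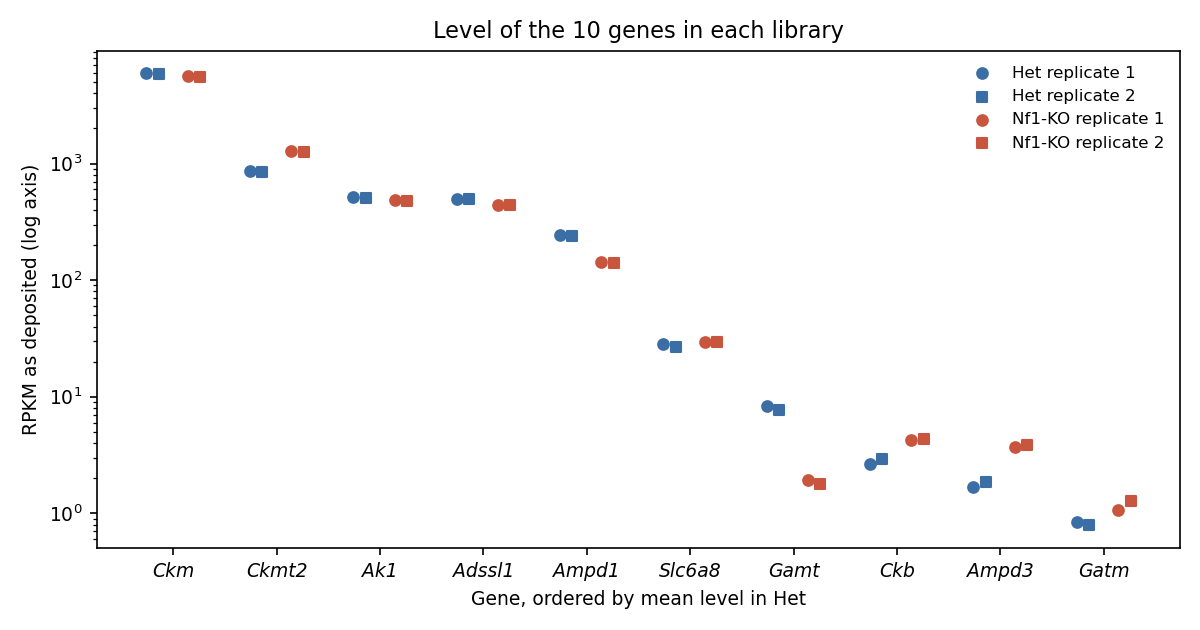
RPKM of each of the 10 genes (log axis) in the 2 Het (blue) and 2 Nf1-KO (red) libraries, with circles for replicate 1 and squares for replicate 2. Levels run from 0.79 RPKM (Gatm) to 5938 RPKM (Ckm), and the gap between groups is widest for Gamt.

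The 3 creatine kinase genes are shown first by their promoters, because they changed in different directions. Windows were found in RefSeq (GRCm38.p6) for 8 of the 10 genes, not for Slc6a8 and Ampd1. The 250 bases before the start site are given 5′ to 3′ on the gene's strand for Ckm (chr7:19410844-19411093, plus strand), Ckmt2 (chr13:91876886-91877135, minus strand) and Ckb (chr12:111672339-111672588, minus strand). Capitals mark matches to the E-box CANNTG, the letters bound by myogenic factors, or to the MEF2 motif, each searched on both strands.
Ckm: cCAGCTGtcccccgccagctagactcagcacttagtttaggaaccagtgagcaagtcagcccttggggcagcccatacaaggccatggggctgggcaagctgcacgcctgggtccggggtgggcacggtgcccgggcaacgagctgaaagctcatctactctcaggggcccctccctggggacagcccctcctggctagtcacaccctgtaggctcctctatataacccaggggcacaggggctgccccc
Ckmt2: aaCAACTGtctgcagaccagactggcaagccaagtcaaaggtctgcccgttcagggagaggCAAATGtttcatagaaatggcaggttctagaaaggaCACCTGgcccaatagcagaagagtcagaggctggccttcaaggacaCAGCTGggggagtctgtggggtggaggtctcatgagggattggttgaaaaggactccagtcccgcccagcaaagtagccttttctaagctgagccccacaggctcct
Ckb: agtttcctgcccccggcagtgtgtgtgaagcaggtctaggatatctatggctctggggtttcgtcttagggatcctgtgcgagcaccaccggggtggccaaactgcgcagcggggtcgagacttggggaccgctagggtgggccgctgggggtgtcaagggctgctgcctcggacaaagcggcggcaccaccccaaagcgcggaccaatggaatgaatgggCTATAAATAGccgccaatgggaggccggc
The RefSeq start site used for Ckm lies inside the GENCODE span of the gene (19404776 to 19422841), not at its first base. The Ckm window held 1 E-box, which began 249 bases before the start site, and the Ckmt2 window held 4, the nearest beginning 107 bases before it. Neither held a MEF2 match. The Ckb window held no E-box and 1 MEF2 match, whose letters lie over a TATA-like stretch; no E-box overlapped a MEF2 match. Of 32851 windows of this length, 66.2% held an E-box and 2.92% a MEF2 match, and of the 13 windows of these genes 10 and 1 did. The matches are a description of the letters.

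Ckm, the muscle creatine kinase (chromosome 7, 19404776 to 19422841, plus strand, GRCm38), was 5938 and 5870 RPKM in Het and 5626 and 5563 RPKM in Nf1-KO. Both Nf1-KO libraries were below both Het libraries, by little. Of the summed RPKM of all named genes, with 1 row kept per name, Ckm made up 1.21% and 1.18% in the Het libraries. In the Nf1-KO libraries it made up 1.11% and 1.10%. Ckm was 15th of all named genes by its mean level. Within the libraries it ranked 17 in both Het and 14 in both Nf1-KO, a higher rank although its level was lower. Of the 10690 genes tested, 2461 fell by more than Ckm. It fell by 0.17 ± 0.015 on the log2 scale (± standard error, here and below; limma adjusted p 0.000219), and by 0.08 with unscaled values, still past the threshold. The authors' deposited table gave -0.18. An antisense gene, A930016O22Rik, shares 451 exonic bases with Ckm but held 0.91 to 1.97 RPKM, far below it.

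Ckmt2, the creatine kinase of muscle mitochondria (chromosome 13, 91853387 to 91876885, minus strand), moved the other way. It was 868 and 853 RPKM in Het and 1290 and 1264 RPKM in Nf1-KO, so the groups were well apart. It rose by 0.48 ± 0.018 on the log2 scale (limma adjusted p 6.62e-06), and 596 of the 10690 genes tested rose by more. The authors' deposited table gave 0.46. An antisense gene, 1700119I11Rik, shares 84 exonic bases with Ckmt2, and its level is not given here.

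Ckb, the brain-type cytosolic enzyme (chromosome 12, 111669361 to 111672338, minus strand), was a minor form in this muscle. It was 2.65 and 2.95 RPKM in Het and 4.24 and 4.34 RPKM in Nf1-KO, without overlap. The rise was 0.41 ± 0.057 on the log2 scale (limma adjusted p 0.00163), and 0.50 in the authors' deposited table. There its mean normalized count was 246.8, against 386500 for Ckm. How reads that match several genes were counted is not given in the sources used here. Whether Ckb shares reads with Ckm was not tested, and the level of Ckb is uncertain to that extent. Ckmt1, the mitochondrial enzyme of other tissues, was listed at 0 in 3 libraries and at 0.01 RPKM in the fourth.

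Within each library the balance of the creatine kinases shifted toward the mitochondrial form. Ckmt2 stood at 14.6% and 14.5% of the RPKM of Ckm in the Het libraries and at 22.9% and 22.7% in the Nf1-KO libraries. Ckb stood at 0.0446% and 0.0503% of Ckm in Het and at 0.0754% and 0.0780% in Nf1-KO. The creatine kinase and creatine supply genes summed to 6846 and 6760 RPKM in Het and 6953 and 6863 RPKM in Nf1-KO, higher in Nf1-KO by little. After scaling between libraries the order of the sums turned, to 7054 and 6978 RPKM in Het against 6747 and 6650 RPKM in Nf1-KO. The ratios to Ckm do not depend on that scaling, but the sums do. With 2 libraries against 2, an exact two-sided permutation test cannot go below 0.3333, the p reached for each of the ratios of Ckmt2 and Ckb to Ckm.

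**Figure D2:**
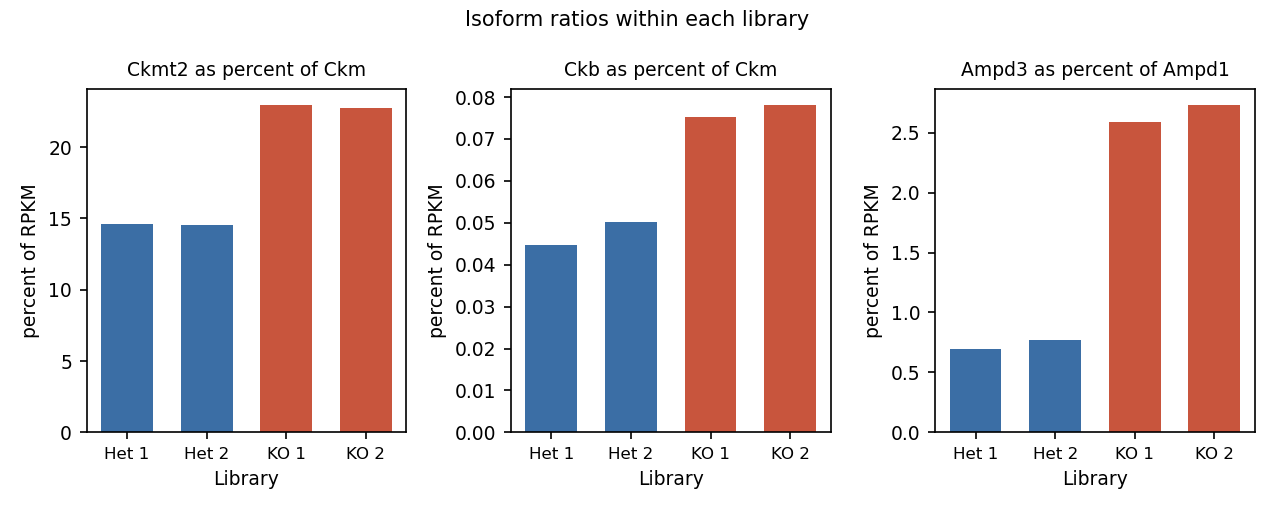
Ckmt2 and Ckb as a percent of Ckm, and Ampd3 as a percent of Ampd1, in RPKM (bars from 0, 1 bar a library, Het blue and Nf1-KO red). Each ratio is higher in both Nf1-KO libraries than in both Het libraries, and as a ratio between the groups Ampd3 differs most, at 0.691% and 0.770% against 2.59% and 2.73%.

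Of the creatine supply genes, Gamt changed most. Gamt, guanidinoacetate N-methyltransferase, makes the last step of creatine synthesis (chromosome 10, 80258151 to 80261012, minus strand). It was 8.27 and 7.76 RPKM in Het and 1.93 and 1.77 RPKM in Nf1-KO, so every Nf1-KO value was far below every Het value. Its log2 fold change came to -1.73 ± 0.055 (limma adjusted p 3.36e-06), and -2.22 in the authors' deposited table. Only 20 of the 10690 genes tested fell by more, and 0.926% of the genes tested were called lower with a log2 fold change below -1. The mean normalized count of Gamt was 237.7 in the authors' deposited table. No other annotated exon overlaps it.

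Gatm, glycine amidinotransferase, makes the first step (chromosome 2, 122594467 to 122611303, minus strand). It was low throughout, at 0.85 and 0.79 RPKM in Het and 1.06 and 1.27 RPKM in Nf1-KO. The groups did not overlap, but as deposited the Nf1-KO libraries were as far from each other as the lower of them was from Het. With a log2 fold change of 0.21 ± 0.068 and a limma adjusted p of 0.046, Gatm was just past the threshold. It was 0.38 with a pseudocount of 0.1. The call was lost without Het replicate 1 (adjusted p 0.091), without Het replicate 2 (0.141), without Nf1-KO replicate 2 (0.241), with the replicate number as a block (0.063) and with no filter on low values (0.125). In the authors' deposited table its log2 fold change was 0.40 and its adjusted p 0.297. The order of the pair of synthesis genes stayed: Gamt was 973% and 982% of the RPKM of Gatm in Het and 182% and 139% in Nf1-KO.

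Slc6a8, the creatine transporter of the cell membrane (chromosome X, 73673150 to 73682502, plus strand), was far more abundant than either synthesis gene. It was 28.05 and 26.62 RPKM in Het and 29.42 and 29.49 RPKM in Nf1-KO. As deposited the groups did not overlap, and after scaling they did (28.9 and 27.5 against 28.6 and 28.6 RPKM). Scaled, its log2 fold change was 0.02 (95% interval -0.06 to 0.10, limma adjusted p 0.661). That interval holds for this scaling and for the spread between these libraries only. With unscaled values Slc6a8 passed the threshold (0.11, adjusted p 0.039), and the authors' deposited table gave 0.0029.

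**Figure D3:**
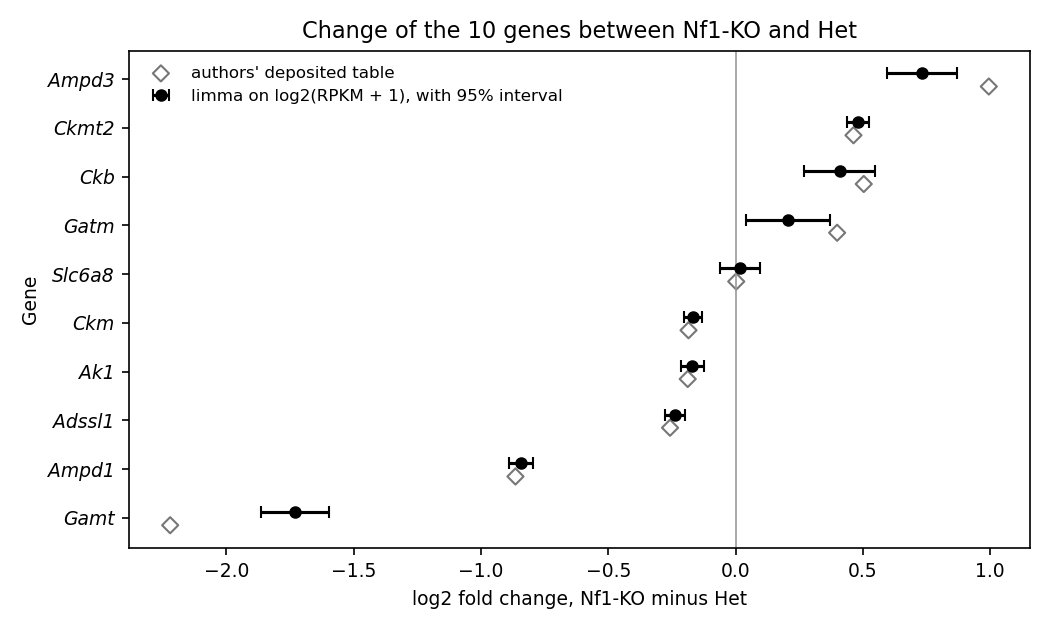
Log2 fold change of Nf1-KO minus Het for the 10 genes. Filled points with bars are limma estimates on log2(RPKM + 1) with 95% intervals, and open diamonds are the authors' deposited table. Gamt and Ampd1 lie farthest to the left and Ampd3 farthest to the right. The diamonds of Ckmt2 and Slc6a8 lie nearer 0 than the points, and the others farther from it, most for Gamt, Ampd3 and Gatm.

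Ak1, the adenylate kinase of the muscle cytosol (chromosome 2, 32621758 to 32635058, plus strand), was 519 and 508 RPKM in Het and 488 and 482 RPKM in Nf1-KO. Both Nf1-KO values were below both Het values, by about as much in proportion as for Ckm. Its log2 fold change was -0.17 ± 0.019 (limma adjusted p 0.000565), -0.08 with unscaled values, where it still passed, and -0.19 in the authors' deposited table. Ak1 stood at 8.73% and 8.65% of the RPKM of Ckm in Het and at 8.68% and 8.66% in Nf1-KO, so this ratio overlapped between the groups (exact permutation p = 1).

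Ampd1, the AMP deaminase of muscle fibres (chromosome 3, 103074014 to 103099720, plus strand), fell most among the 5 abundant genes. It was 242 and 240 RPKM in Het and 144 and 141 RPKM in Nf1-KO. The replicates of each group nearly coincided and the groups were far apart. Ampd1 had a log2 fold change of -0.84 ± 0.020 (limma adjusted p 1.19e-06), and -0.86 in the authors' deposited table, and 159 of the genes tested fell by more. Its rank among all named genes went from 154 and 155 in the Het libraries to 316 and 330 in the Nf1-KO libraries.

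Ampd3, the deaminase best known from red blood cells (chromosome 7, 110768206 to 110812405, plus strand), rose from a low level. It was 1.67 and 1.85 RPKM in Het and 3.73 and 3.85 RPKM in Nf1-KO, without overlap. For Ampd3 the log2 fold change was 0.73 ± 0.057 (limma adjusted p 0.000134), 0.98 with a pseudocount of 0.1, and 0.99 in the authors' deposited table. Ampd3 shares 196 exonic bases with B430319F04Rik on the opposite strand and 83 with the microRNA gene Gm47282 on the same strand. Levels of B430319F04Rik and Gm47282 are not given here. Ampd3 also shares 195 exonic bases with Rnf141 on the opposite strand. Rnf141 held 7.29 and 6.68 RPKM in Het and 6.66 and 7.01 RPKM in Nf1-KO, so its groups overlapped. The library kit does not mark strand, so reads of this stretch cannot be assigned to either gene. Ampd2, the deaminase of liver and other tissues, was 0.94 and 0.76 RPKM in Het and 0.56 and 0.57 RPKM in Nf1-KO (log2 fold change -0.28, limma adjusted p 0.016), a call lost without Het replicate 1 (adjusted p 0.056) and with no filter on low values (0.060). The summed level of the purine nucleotide cycle genes was 774 and 768 RPKM in Het and 636 and 631 RPKM in Nf1-KO.

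Adssl1, the adenylosuccinate synthase of muscle (chromosome 12, 112620045 to 112641360, plus strand), was 496 and 492 RPKM in Het and 445.1 and 444.9 RPKM in Nf1-KO. The Nf1-KO libraries were both lower. For Adssl1 it was -0.24 ± 0.016 on the log2 scale (limma adjusted p 6.71e-05), -0.15 with unscaled values, where it still passed, and -0.26 in the authors' deposited table. Adss, the form of other tissues, was 1.94 and 2 RPKM in Het and 1.48 and 1.46 RPKM in Nf1-KO, a log2 fold change of -0.32 (limma adjusted p 0.00319). Adsl, the lyase that completes the cycle, moved the other way, from 31.6 and 31.7 RPKM to 41.0 and 39.1 RPKM, a log2 fold change of 0.24 (limma adjusted p 0.00109). All 6 genes of the cycle were thus called, 4 lower (Ampd1, Ampd2, Adssl1, Adss) and 2 higher (Ampd3, Adsl). That count includes the call of Ampd2, which was lost under the alternatives given above. Of all genes tested, 50.2% were called. Among those averaging at least 100 RPKM, which include Ampd1 and Adssl1, 90.3% were.

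The muscle was a mixture of cells, and in such bulk RNA fewer cells of a type and less RNA per cell cannot be told apart. Of the 9 fibre markers, 6 were lower (Acta1, Myh4, Tnnt3, Tnnc2, Actn3, Pvalb) and 3 higher (Myh1, Myh2, Des), and their summed level was 52792 and 53051 RPKM in Het and 40943 and 40555 RPKM in Nf1-KO. The 6 lower markers and the sum share the direction of Ckm, Ak1, Ampd1 and Adssl1, and the 3 higher markers that of Ckmt2. Because the markers were split by direction, that match was fixed in advance. The sizes differed: the 6 lower markers had log2 fold changes of -0.29 to -1.72. Those of Ckm, Ak1 and Adssl1 were smaller (-0.17, -0.17 and -0.24), and that of Ampd1 (-0.84) lay within the range. The part of the fibre markers in those changes was not tested. All 7 tested Schwann cell markers of 8 were higher, with sums of 16.1 and 16.6 RPKM against 37.4 and 35.6 RPKM. Of 7 macrophage and leukocyte markers, 3 of the 4 tested were higher, with sums of 9.96 and 10.04 against 29.0 and 29.1 RPKM, and Adgre1 was listed at 0 throughout. All 5 fibroblast markers were higher, with sums of 86.7 and 84.4 against 128 and 129 RPKM. These lists share only the direction of Ckb, Gatm and Ampd3, genes of low level that other cells also express. The part of the lists in those changes was not tested. Of 4 neuron markers none reached the filter, with sums of 0.08 to 0.21 RPKM, and Snap25 and Syt1 were listed at 0. Of the tested markers, 2 endothelial cell genes were higher and 2 lower of 5, 1 smooth muscle gene higher and 1 lower of 3, 1 adipocyte gene higher of 2 and 1 satellite cell gene higher of 3. All these marker counts are limma calls. The authors' deposited table did not call Sox10, Dcn, Pecam1, Tie1, Tek, Tagln, Cidec and Chrdl2 (adjusted p 0.064 to 0.206), which limma called. It did call Egr2 and Lep, which limma did not test. With unscaled values Tie1 and Tagln lost their limma calls (adjusted p 0.424 and 0.101), and Cdh5, Myh11, Alas2 and Pax7 gained one. Of the red blood cell list, set here beside Ampd3, Hba-a2, Hbb-b1 and Hbb-b2 were listed at 0 in all libraries, Hba-a1 at 0.05 RPKM in 1, and Alas2 did not pass (log2 fold change 0.12). A listed 0 can also be a failed estimate.

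Other genes of the pathway were taken from 7 lists that also hold the 10 genes. Of 61 further genes, 52 were tested and 32 were called (61.5%, against 50.2% of all genes), 20 higher and 12 lower. Their median log2 fold change was 0.08. These counts are limma calls. The authors' deposited table did not call Pnp, Nt5m, Prpsap2 and Slc25a5 (adjusted p 0.072 to 0.347), which limma called. It did call Atic (adjusted p 0.0255), which limma did not. Of 7 other tested adenylate and nucleoside diphosphate kinases, 3 were higher (Ak4, Nme1, Nme2) and 2 lower (Ak3, Ak6). Ak4, an adenylate kinase of the mitochondrial matrix, was 1.61 and 1.35 RPKM in Het and 3.20 and 3.60 RPKM in Nf1-KO, a log2 fold change of 0.77 (limma adjusted p 0.000366). Nme1, which makes other nucleoside triphosphates from ATP, was 8.61 and 7.83 against 12.88 and 13.14 RPKM (0.52, adjusted p 0.000281). Ak3, which uses GTP in the matrix, was 22.24 and 21.10 against 20.52 and 21.07 RPKM (-0.14, adjusted p 0.018). Its call was lost with unscaled values (-0.06, adjusted p 0.233), without Het replicate 1 (0.086), without Nf1-KO replicate 1 (0.064) and with no filter on low values (0.061). Ak5 was at or below 0.12 RPKM in every library.

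Nucleotide breakdown and salvage genes had 5 higher (Nt5c2, Adk, Pnp, Xdh, Gda) and 2 lower (Nt5c1a, Nt5m) of 14 tested. Nt5c1a, which removes phosphate from AMP in the muscle cytosol, was 15.45 and 17.26 RPKM in Het and 9.89 and 10.60 RPKM in Nf1-KO, a log2 fold change of -0.71 (limma adjusted p 0.000185). Adk, adenosine kinase, which returns adenosine to AMP, was 17.97 and 19.16 against 28.84 and 27.93 RPKM (0.50, adjusted p 0.000143). Xdh, xanthine dehydrogenase, of the last steps of purine breakdown, was 5.19 and 5.29 against 9.28 and 9.44 RPKM (0.65, adjusted p 4.38e-05). Nt5m lost its call with unscaled values (-0.08, adjusted p 0.218).

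Purine synthesis genes were mixed, with 3 higher (Prpsap2, Gart, Pfas) and 3 lower (Ppat, Paics, Guk1) of 13 tested. Ppat, which makes the committed step, fell by 0.42 on the log2 scale (limma adjusted p 0.000439). The log2 fold changes of Guk1 and Paics were -0.37 and -0.19.

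Genes that carry ATP and ADP across the mitochondrial membranes had 6 higher of 9 tested (Slc25a4, Slc25a5, Slc25a24, Slc25a25, Slc25a42, Vdac1). Vdac3 was lower (log2 fold change -0.06), but 0.025 and not called with unscaled values. Slc25a4, the ATP and ADP exchanger of muscle, was 2254 and 2240 RPKM in Het against 2832 RPKM in both Nf1-KO libraries, a log2 fold change of 0.24 (limma adjusted p 3.32e-05). Slc25a25, a carrier of ATP-Mg and phosphate, was 14.65 and 14.45 against 26.88 and 26.36 RPKM (0.74, adjusted p 8.58e-06). The log2 fold change of Vdac1 was 0.13.

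Of 6 ATP-using pump genes, 2 were higher (Atp2a2, Atp1b1) and 2 lower (Atp2a1, Atp1b2). Atp1b2, a beta subunit of the sodium pump, was 65.51 and 63.37 RPKM in Het and 26.95 and 26.39 RPKM in Nf1-KO, a log2 fold change of -1.33 (limma adjusted p 8.28e-07). Atp1b1, another beta subunit, moved the other way, from 103.55 and 103.72 RPKM to 122.14 RPKM in both Nf1-KO libraries (0.15, adjusted p 0.00122). Atp2a1, the calcium pump of fast fibres, was 7184 and 7129 against 6447 and 6285 RPKM (-0.26, adjusted p 6.87e-05).

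**Figure D4:**
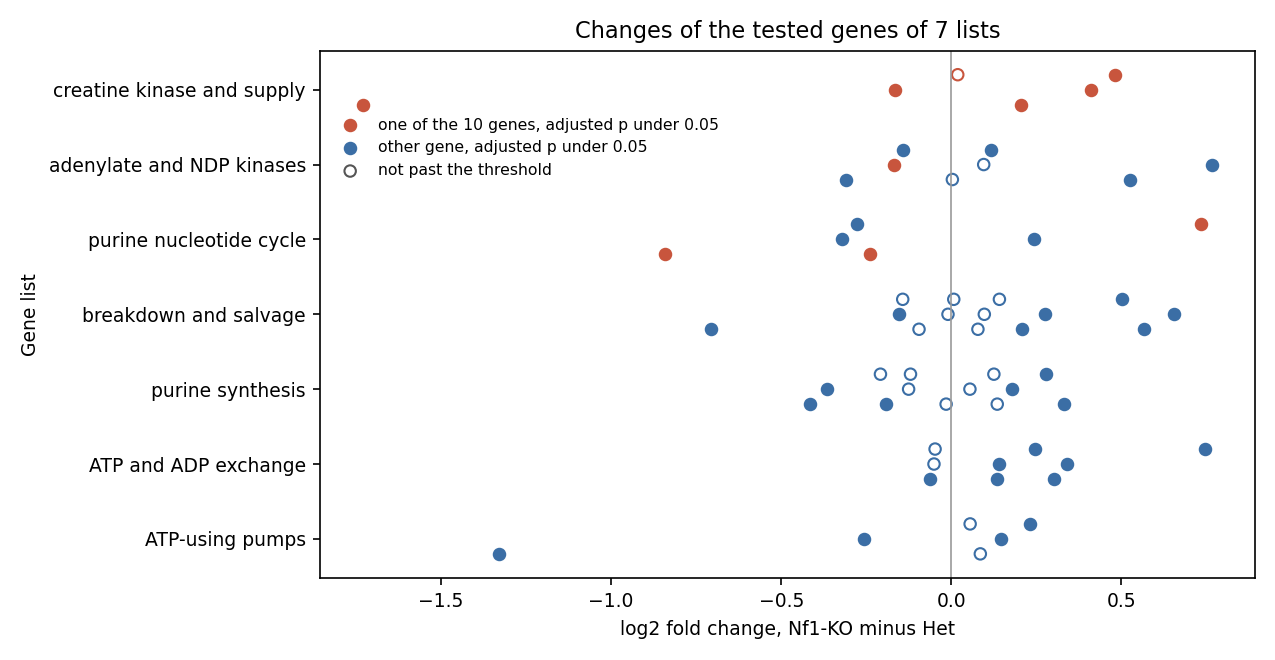
Log2 fold changes of Nf1-KO minus Het for the tested genes of 7 lists, 1 point a gene (height within a row has no meaning). Red points are the 10 genes and blue points other genes, filled where the limma adjusted p was under 0.05; Gamt and Atp1b2 are the points farthest to the left.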

How the data were processed

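Per the submitters' processing notes, STAR 2.4.2a, DESeq2 and build mm9 were used; the counting program, annotation and strand setting are not given in the sources used here. Per the labels' protocols, libraries came from total RNA with a TruSeq RNA version 2 kit. The authors deposited 1 value per gene and library, read here as RPKM: the ratio of the authors' mean normalized count to the value rose with transcript length (log-log slope 0.954, 4551 genes). Per the file headers, the authors' deposited table gives a signal (mean of counts divided by size factors), a log2 fold change with its error, a test score and a p-value.

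Of 34682 rows, 33 with a number for a name were left out, and of 1781 further copies the row with the highest mean per name was kept. The tested genes reached 0.5 RPKM in 2 or more libraries. The test was limma (version 3.58.1, R 4.3.3) of log2(RPKM + 1) values, with the variance trended on the mean and no covariate, after scaling by a trimmed mean of log ratios (factors 0.971, 0.969, 1.03, 1.03); the threshold was an adjusted p of 0.05, two-sided. The script was tested on simulated data. Depth was searched as the number of reads that brought low values of short genes closest to whole reads, so it is an estimate, and no intervals for counting error are given. Gene positions are from GENCODE M21 (GRCm38), not the authors' build.

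The 10 genes and the lists were chosen with earlier results of these data known. Named genes are the 10, their enzyme families (Ckmt1, Ak3 to Ak5, Ampd2, Adss, Adsl), the 3 genes of smallest adjusted p in each list, and Nf1. Some genes of the lists are not reported here. Other scalings, pseudocounts, filters, a fit without the trend, a replicate block, summed copies, a stricter threshold and leaving out each library were tried.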

Additional observations from a re-analysis of the deposited data

How the results depend on the processing

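Of 510 values recomputed under alternatives, 489 stayed on the same side of the threshold with the same sign or, for counts, stayed within 1.5 times. Among the 10 genes, Ckm, Ckmt2, Ckb, Gamt, Ak1, Ampd1, Ampd3 and Adssl1 kept both under all 14 alternatives. Gatm and Slc6a8 did not, as given above. Some of the 489 could not change. Summed copies were the only alternative for the ratios of Ckmt2 and Ckb to Ckm and of Ampd3 to Ampd1. Each of these genes had a single row, so their ratios stayed the same. For any gene with a single row, summing copies left its deposited values unchanged. From 8 to 10 of the 10 were called across alternatives (8 to 9 when a library was left out). The direction turned for Slc6a8, which was not called (-0.018 without Het replicate 2; -0.018 to 0.052 over the libraries left out); the cause was not tested. Genes called lower numbered 2659, and 1762 at an adjusted p under 0.01, since the threshold is stricter. The fit did not pair libraries by replicate number. The correlation of the deviations of libraries with one number was -0.018 across genes, a single value that cannot settle whether they were paired. A replicate block gave 5246 called genes in place of 5368, and 8 of the 10. Gatm, Nf1 and Ampd2 could not be tested with at least 1 RPKM required in every library. Gatm had a mean normalized count of 110.2 in the authors' deposited table, and the part of read depth in its lost calls was not tested.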
